A study of Mus musculus with 16 samples.

Results

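Livers of NCoR1 knockout (KO) mice were compared with livers of wild-type (WT) mice after a diet made to lower thyroid hormone. The readout was H3K27ac, acetylation of histone H3 at lysine 27, a mark of active promoters and enhancers, read out by ChIP-seq, in which DNA bound to the marked histone is pulled down and sequenced. The comparison uses 6 of the 12 H3K27ac libraries: 3 KO and 3 WT libraries on PTU/LID, a low-iodine diet with 0.15% propylthiouracil, a drug that blocks synthesis of thyroid hormone. The remaining 6 libraries, 3 KO and 3 WT on chow, entered the model and are set beside the results, and 4 input libraries among the 16 of the series were not analysed here. Both genotypes are labelled C57BL/6J, started the diet at 6 weeks of age and were sampled on day 21. All tested regions were used, 52606 of the 52645 deposited. Neither the deleted part of Ncor1, nor the cells that lost it, nor a thyroid hormone level was taken from the labels, and the labels do not say whether each library is a separate mouse. The p-values therefore measure the spread between these libraries, which may be technical.

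NCoR1 is a corepressor. Thyroid hormone receptors without their hormone, and other nuclear receptors such as the liver X receptors (LXR), the peroxisome proliferator-activated receptors (PPAR) and REV-ERB, recruit it together with histone deacetylase 3, which removes acetyl groups from histones. Loss of the corepressor when the hormone is low is thus the setting in which release of repressed genes, called derepression, is asked about. In liver, thyroid hormone is known to raise genes of lipid synthesis, sterol export and deiodination.

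The promoters of 5 genes from RefSeq (GRCm38.p6, the assembly of mm10) are printed because H3K27ac on them carries parts of the result: Thrsp, Fasn and Abcg8, induced by thyroid hormone, Sult2a3, among the strongest gains, and Avpr1a, among the strongest losses. Sult2a3 and Avpr1a came from the rule for named sequences, and the other 3 were chosen after their values were seen. Each run holds the 250 bases before the transcript start, 5′ to 3′ on the gene's strand. Capitals mark the bases inside 1 H3K27ac region assigned to the gene that differed between KO and WT. Lower-case bases can lie in other regions that differed. A region assigned to Abcg5 (chr17:84681933-84682999) covers part of the Abcg8 run. A further Avpr1a region (chr10:122447970-122448395) covers part of the Avpr1a run.
Thrsp: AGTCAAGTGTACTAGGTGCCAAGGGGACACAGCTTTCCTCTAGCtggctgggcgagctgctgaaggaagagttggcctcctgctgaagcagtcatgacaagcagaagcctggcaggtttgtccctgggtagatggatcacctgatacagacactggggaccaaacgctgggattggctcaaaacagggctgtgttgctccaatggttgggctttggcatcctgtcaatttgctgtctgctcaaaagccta
Fasn: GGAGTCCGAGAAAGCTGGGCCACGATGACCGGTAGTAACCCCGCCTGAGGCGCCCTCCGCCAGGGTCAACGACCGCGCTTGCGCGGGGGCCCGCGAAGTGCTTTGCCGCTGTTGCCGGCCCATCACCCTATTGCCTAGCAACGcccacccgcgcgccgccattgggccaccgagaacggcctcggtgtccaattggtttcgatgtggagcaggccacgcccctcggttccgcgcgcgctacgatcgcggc
Abcg8: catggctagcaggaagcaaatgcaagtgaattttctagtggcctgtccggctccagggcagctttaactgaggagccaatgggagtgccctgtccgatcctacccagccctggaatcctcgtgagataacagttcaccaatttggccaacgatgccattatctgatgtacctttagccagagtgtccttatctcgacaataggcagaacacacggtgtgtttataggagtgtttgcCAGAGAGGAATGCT
Sult2a3: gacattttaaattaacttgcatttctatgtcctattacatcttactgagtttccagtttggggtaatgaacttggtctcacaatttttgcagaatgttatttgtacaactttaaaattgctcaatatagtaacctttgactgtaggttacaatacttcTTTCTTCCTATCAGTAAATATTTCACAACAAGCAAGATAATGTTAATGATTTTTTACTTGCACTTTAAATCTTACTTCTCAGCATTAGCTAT
Avpr1a: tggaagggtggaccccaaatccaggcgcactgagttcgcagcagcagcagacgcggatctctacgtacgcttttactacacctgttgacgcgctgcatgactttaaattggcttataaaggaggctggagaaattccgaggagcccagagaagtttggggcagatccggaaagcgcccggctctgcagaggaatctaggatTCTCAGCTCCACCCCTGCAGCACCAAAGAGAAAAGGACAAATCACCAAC

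The Thrsp run is chr7:97417551-97417800 on the minus strand, and the region on it rose by 1.06 ± 0.25 (SE) on the log2 scale, but did not pass without KO-239 (edgeR adjusted p = 0.116) or WT-155 (0.0755). The Fasn run is chr11:120824548-120824797 on the minus strand, and its region rose by 0.99 ± 0.21. The Abcg8 run is chr17:84682871-84683120 on the plus strand, and its region rose by 1.1 ± 0.17. The Sult2a3 run is chr7:14123049-14123298 on the minus strand, with a region that rose by 2.09 ± 0.31, and the Avpr1a run is chr10:122448249-122448498 on the plus strand, with a region that fell by 2.21 ± 0.31. The core element of nuclear receptors, AGGTCA, was searched on both strands in these runs and in 4 more picked by the same rule (Tbl1xr1, Mrpl55, Pltp and Loxl4). Of the 9 runs, 0 held it, against 14% of the 32851 promoters listed. The direct repeat of that element with any 4 bases between the copies (DR4), which overlaps it by definition, was in 0 of the 9 and in 0.0152% of all. These counts say only that the letters are not in these windows.

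Total counts over the regions were 3719180, 7416187 and 7084675 in the KO libraries KO-211, KO-232 and KO-239, named by the numbers of their labels, and 3095704, 4546159 and 4729424 in WT-135, WT-155 and WT-280. They averaged 6073347 ± 2045496 in KO and 4123762 ± 895028 in WT (SD, n = 3; 2-sided exact permutation test p = 0.3, adjusted p = 0.5 over 2 such tests, smallest possible 0.1). Mitochondrial regions took 2.27% of the counts in KO-211 and 3.26% in WT-135, and between 0.717% and 1.08% in the other 4. KO-211 and WT-135 also stood apart on the principal components of the 6 libraries, of which the first held 34.4% and the second 26.2% of the variance. The main results are therefore also given without both of them. Ncor1 itself had 59.4, 55 and 47.9 CPM (counts scaled to library size) in KO and 63.5, 50.8 and 51.4 in WT, which overlap. Since the deleted part is not named, these levels do not check the genotype.

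H3K27ac was higher in KO at far more regions than it was lower. Of the 52606 regions, 2032 differed (3.86%), 1665 higher in KO (3.17%) and 367 lower (0.698%), by edgeR's quasi-likelihood test at a Benjamini-Hochberg adjusted p below 0.05, the threshold meant by "passed" throughout. The higher regions had a median log2 fold change of 0.95, from 0.53 to 2.77, and 705 of them differed by more than 2-fold. Their median level was 14.7 CPM per kb in WT and 28.7 in KO. The lower regions had a median of -0.97, and 168 of them differed by more than 2-fold. Across all regions the median was -0.01, so the change is one of particular regions relative to the rest. A change of the mark everywhere cannot be seen in such counts.

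**Figure D1:**
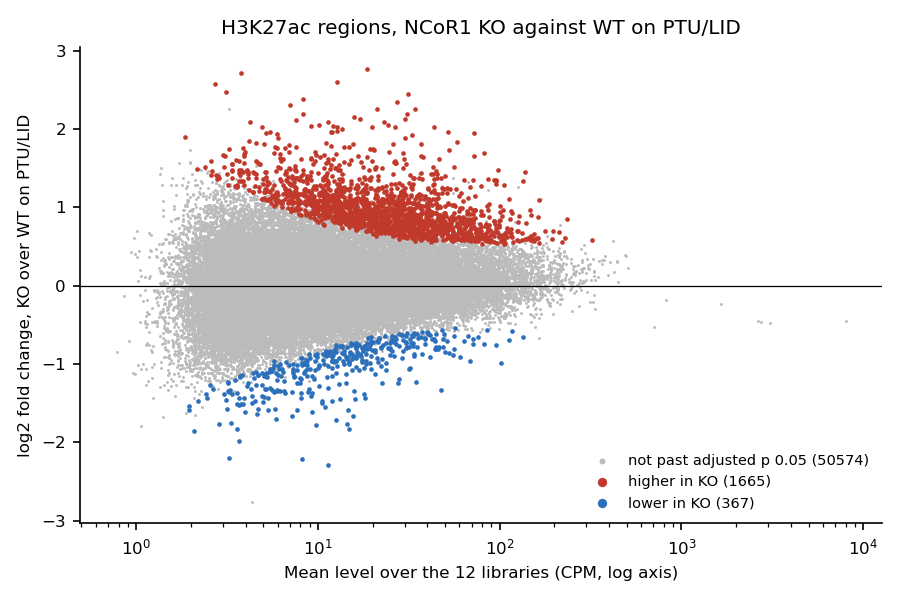
Log2 fold change of KO over WT on PTU/LID (y axis) against the mean CPM over the 12 libraries (x axis, log scale), 1 point per region. The 1665 red points (higher) outnumber the 367 blue points (lower), and both groups span the range of levels.

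The counts moved with the libraries used. With only the 4 PTU/LID libraries other than KO-211 and WT-135, fitted without the chow libraries, 3968 regions passed, 3095 higher and 873 lower. The 6 PTU/LID libraries, also fitted without chow, gave 1304. Leaving out KO-232, KO-239 or WT-280 from the fit of 12 libraries left 1094, 929 and 1012 regions. Higher regions made up between 77.9% and 85.4% of the calls when any 1 of the 6 libraries was left out. The calls were made on these same 6 libraries, so the following values describe them and support nothing. In the 2 KO and 2 WT libraries with the lower mitochondrial share, the 1665 higher regions had a median log2 difference of 0.99, and in KO-211 against WT-135 it was 0.78, 1 library each, with 1621 of the 1665 above 0.

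The higher regions were longer than regions in general, with a median of 1015 base pairs against 469. They also lay farther from genes. Of the higher regions, 18.4% were within 2.5 kb of a gene end, against 33.7% of all tested regions. A further 25.8% lay between genes and 15.3% more than 50 kb from any protein-coding gene, against 15.9% and 6.74% of all. The lower regions had 37.3% near a gene end and a median length of 585 base pairs. Longer regions hold more reads and pass at smaller differences, and the part of length in these shares was not tested. The annotation table gives no exons, so whether a region inside a gene is exonic or intronic is not given.

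The region that gained most, 11.4 kb from Sult2a2, which encodes a sulfotransferase for steroids and bile acids (chr7:13721665-13722635), had 22.5, 30.6 and 44.5 CPM in KO and 4.48, 6.03 and 3.9 in WT. Every KO library lay far above every WT library, a log2 fold change of 2.77 ± 0.3 (SE, edgeR adjusted p = 9.48e-07). A region 8 kb from Scd1, the desaturase that makes monounsaturated fatty acids (chr19:44386241-44386570), had 6.91, 6.21 and 6.27 CPM in KO and 2.39, 0.65 and 0.21 in WT. Its log2 fold change was 2.72 ± 0.46 (edgeR adjusted p = 0.000254), at low levels in both groups. A region 6.3 kb from Fabp5, a fatty acid binding protein (chr3:10022596-10023229), had 24.6, 15.9 and 25.4 CPM in KO. The WT libraries had 3.58, 3.45 and 3.7, so the groups stood well apart (2.6 ± 0.33). Inside Dync2li1, a dynein subunit gene next to the sterol exporter genes Abcg5 and Abcg8 (chr17:84652330-84653687), the values were 60.6, 43.9 and 53.6 CPM in KO. In WT they were 8.96, 10.6 and 9.44 (2.44 ± 0.24, edgeR adjusted p = 4.41e-08). The groups did not overlap in any of these regions, which is how they were named; 10.5% of all regions had every KO library above every WT library. The other regions in the top 12 lay at Ttll8, Acot11, Adcy1, Kcnk3, Sult2a7, Cdk15, B4galt1 and Sult2a3, with log2 fold changes from 2.09 to 2.47. All 12 passed with any 1 of the 6 libraries left out. On chow, KO was also higher at the Sult2a2 region (2.6 ± 0.29, edgeR adjusted p = 3.28e-06). The test of a difference between the diets did not pass there (0.17 ± 0.43, 0.943). The regions at Sult2a3 (2.86), Cdk15 (1.39), Acot11 (1.29) and Adcy1 (1.05) also passed as higher on chow. Those at Scd1, Fabp5, Ttll8, Dync2li1, Kcnk3, Sult2a7 and B4galt1 did not, with log2 fold changes from -0.33 to 0.76. The Sult2a genes are near-identical copies, and how reads were split among them is not known here.

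Several loci held many of the higher regions. At Scd1, 12 of 13 regions passed as higher, from 1.07 to 2.72 on the log2 scale over chr19:44379533-44420331. The strongest of them in reads (chr19:44386885-44390961) had 193, 180.3 and 206 CPM in KO and 70.2, 82 and 75.8 in WT. At Fabp5, 8 of 10 regions passed, and at Dync2li1, 5 of 6. With any 1 library left out, 11 of the 12 at Scd1, 5 of the 8 at Fabp5 and all 5 at Dync2li1 passed. At Ppp1r3b, which targets protein phosphatase 1 to glycogen, 8 of 23 passed, from 1.05 to 2.03. Prlr, the prolactin receptor, had 10 of 27, Nedd4l, a ubiquitin ligase, 10 of 29, and Elovl5, an elongase of polyunsaturated fatty acids, 9 of 22. In all, 55 genes had 5 or more higher regions and 404 genes had 1.

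**Figure D2:**
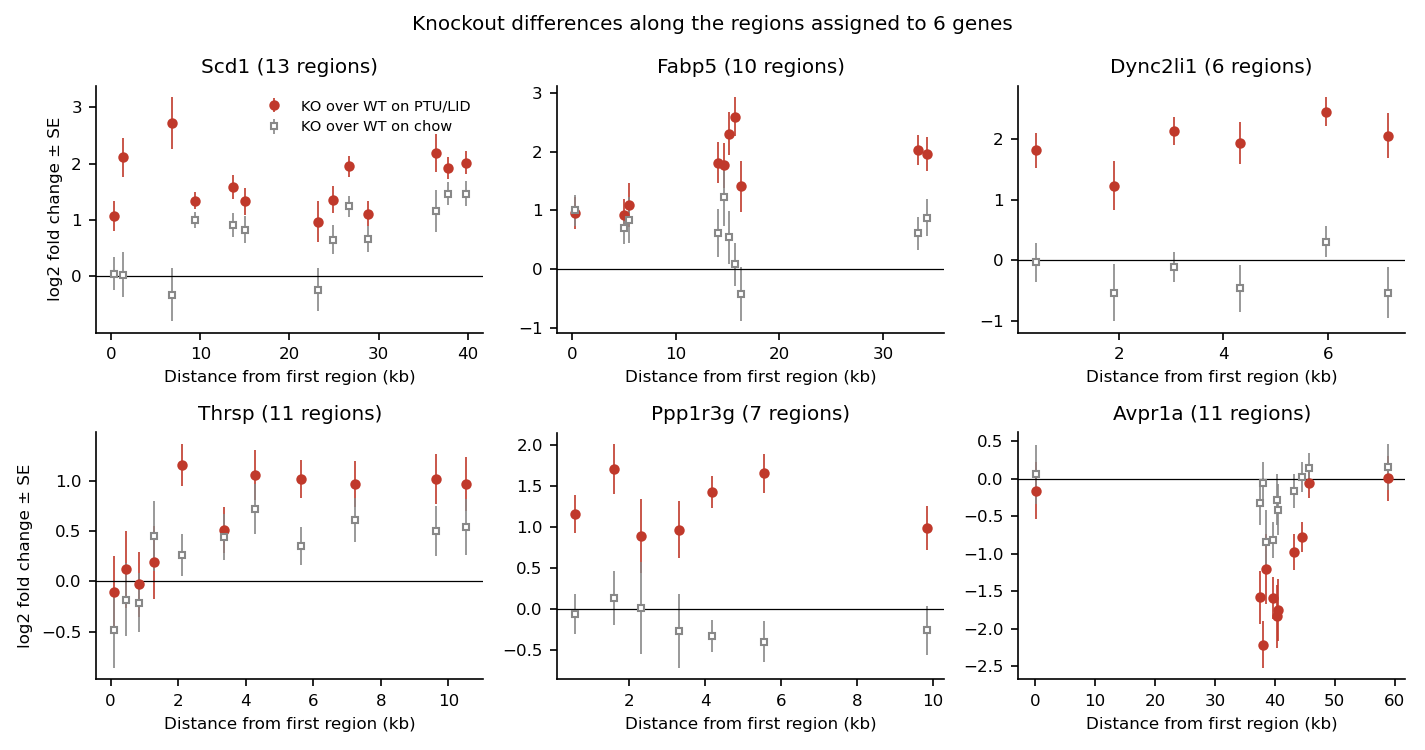
Log2 fold change ± SE of KO over WT (y axis) on PTU/LID (red circles) and chow (open grey squares) for every region assigned to 6 genes, by distance from the first region (x axis, kb). At Dync2li1 the red points run from 1.23 to 2.44 while the grey ones lie at or below 0.31, at Scd1 both sets lie mostly above 0, and at Avpr1a the red points dip to -2.21 around the gene.

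At Thrsp, 6 of 11 regions passed, on both sides of the start. The stretch began inside the gene with chr7:97415198-97416629 (22.3, 35.5 and 41 CPM in KO, 15.2, 14.2 and 15.2 in WT) and ran out past the start to chr7:97424003-97424641. The log2 fold changes of the 6 lay between 0.97 and 1.16, and the region between them that lies inside the gene next to the start did not pass (0.51, edgeR adjusted p = 0.241). Of the 6, 3 passed with any 1 library left out. The promoter region did not without KO-239 (0.116) or WT-155 (0.0755), nor did the region from 97423029 (0.0871 and 0.0676). The region from 97424003 did not without KO-211 (0.0745), KO-239 (0.19), WT-135 (0.089), WT-155 (0.0785) or WT-280 (0.0931). The 4 regions at the far end of the gene had log2 fold changes from -0.11 to 0.19, and none of the 4 passed in edgeR's test.

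Losses were fewer and more scattered. At Avpr1a, the vasopressin receptor of hepatocytes, 7 of 11 regions passed as lower, 2 of them with any 1 library left out, and the one over its start (chr10:122448450-122448964) had 4.09, 2.21 and 2.62 CPM in KO. The WT libraries had 17, 14.4 and 8.62, all above KO (-2.21 ± 0.31, edgeR adjusted p = 1.39e-05). Nfix, which encodes a nuclear factor I protein, had 6 of 27 regions lower, from -1.48 to -0.65. All 3 regions of Flvcr2, a membrane transporter, were lower. Lower regions near Btnl10 and Mrpl55 and inside Vmp1, all on chromosome 11, and inside Tmem241, had log2 fold changes from -1.72 to -1.83. The region of largest loss, near Dhx40 (chr11:86813749-86814532, -2.29 ± 0.46), had 3.58, 4.97 and 2.92 CPM in KO and 16.4, 14.9 and 25.5 in WT. It did not pass without KO-211 (edgeR adjusted p = 0.0523) or KO-239 (0.0802). Of the 12 largest losses 6 passed with any 1 library left out, and every KO library lay below every WT library at 8.63% of all regions. Ncor1 is also on chromosome 11. Within 30 Mb of it, 11 of 1754 regions were lower (0.627%), against 0.706% of the regions on other chromosomes. Lower by more than 2-fold were 7 of those 1754, 4 of 2138 on the rest of chromosome 11 and 157 of 48714 on other chromosomes. On chow, the regions at Dhx40, Vmp1, Btnl10, Mrpl55 and Tmem241 also passed as lower, from -2.07 to -1.55. The other regions among the 12 largest losses did not pass on chow.

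Summed over the regions assigned to each gene, 719 of 11444 genes passed (6.28%), 559 higher in KO (4.88%) and 160 lower (1.4%), with a median log2 fold change of -0.03 over all genes. With only the 4 PTU/LID libraries other than KO-211 and WT-135, fitted without the chow libraries, the counts were 1011 and 291. The 6 PTU/LID libraries fitted alone gave 369 genes in both directions together. Leaving out KO-232, KO-239 or WT-280 from the fit of 12 libraries left 364, 383 and 414. The gene lists below were chosen with earlier results of these data known, and their counts stand beside 4.88% as a description. Some genes are on more than 1 list, so the counts of different lists overlap. With each gene counted once, the lists held 386 genes with a value, 79 of them higher and 2 lower. Most lists carry more H3K27ac than genes in general: the median over all genes was 37.3 CPM, against 187 in the thyroid hormone list. The coactivator (27.1), stellate (9) and Kupffer cell (5.1) lists lay below that median. Higher levels give smaller errors.

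Of genes that thyroid hormone is known to raise in liver, 8 of 17 were higher in KO and 0 lower, with a median log2 fold change of 0.47. On chow, 6 of the same 17 were higher in KO and 0 lower (median 0.35), beside 2.43% of all genes higher there. The test of a difference between the diets passed at 0 of the 17. Thrsp, a regulator of lipid synthesis, had 206, 256 and 269 CPM in KO and 108, 121 and 159 in WT. All KO libraries lay above all WT libraries (0.91 ± 0.14, edgeR adjusted p = 0.000236). Me1, the malic enzyme that supplies NADPH for fatty acid synthesis, had 100, 87.1 and 89.9 CPM in KO and 68.9, 44.2 and 41.2 in WT, also with no overlap (0.86 ± 0.15). Gpd2, the mitochondrial glycerol phosphate dehydrogenase, had 109, 144 and 158 CPM in KO and 75.3, 74.5 and 80.3 in WT (0.84 ± 0.13). WT libraries were tight and KO-211 was the lowest of KO. When only regions within 2.5 kb of a gene end were summed ("near gene ends" hereafter), Gpd2 did not pass (edgeR adjusted p = 0.107).

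The sterol exporter subunits Abcg5 and Abcg8 both rose. They are neighbours and not separate loci. The 1 Abcg5 region that passed (chr17:84681933-84682999) lies next to the Abcg8 region of largest gain (chr17:84683107-84684527). Abcg5 had 45.8, 41.4 and 48.5 CPM in KO and 24.5, 22.9 and 24.9 in WT (0.91 ± 0.14), and Abcg8 had 133, 146.3 and 153 against 89.8, 77.3 and 67 (0.89 ± 0.12). G6pc, the glucose-6-phosphatase that releases glucose, rose by 0.58 ± 0.11, and Acaca, acetyl-CoA carboxylase 1, by 0.47 ± 0.11. Fasn, fatty acid synthase, had 150.1, 143.5 and 142 CPM in KO and 73.3, 113 and 118 in WT (0.51 ± 0.14, edgeR adjusted p = 0.0265). WT-135 was the lowest of the 6 libraries. Fasn did not pass without KO-232 (0.0719), KO-239 (0.0501) or WT-135 (0.0772), nor with the 6 libraries alone (0.0883). The other 7 passed with any 1 library left out.

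The deiodinase gene Dio1, a standard marker of thyroid hormone in liver, did not differ beyond the spread when summed over its regions. It had 61.4, 41.9 and 43.5 CPM in KO and 68.3, 44.4 and 38.7 in WT, fully overlapping, with a log2 fold change of -0.04 ± 0.19 whose sign turned with the library left out. On chow it had 300.4 ± 43.9 CPM in KO and 191 ± 11.5 in WT (SD, n = 3), so both genotypes were far lower on PTU/LID than on chow (log2 fold changes -2.64 ± 0.18 and -1.94 ± 0.18). KO over WT passed as higher on chow (0.66 ± 0.17, edgeR adjusted p = 0.0314), and the test of a difference between the diets did not pass (0.321). Of the 7 Dio1 regions, 1 passed as lower on PTU/LID (chr4:107298841-107300051, -0.96 ± 0.29, edgeR adjusted p = 0.0499). That call was lost when any 1 of 5 of the 6 libraries was left out. Cyp7a1, which starts the main route to bile acids, had 63.5, 54.5 and 53.6 CPM in KO and 47.1, 45.4 and 41.8 in WT. These do not overlap; every KO library was above every WT library at 10.6% of all genes (below at 10.1%), but the gene did not pass (0.35 ± 0.14, edgeR adjusted p = 0.154). Klf9, a hormone-responsive transcription factor, was at 0.05, and Cpt1a, which admits fatty acids to mitochondria, at 0.36 (adjusted p = 0.893 and 0.0585). The WT diet difference was -0.62 for Me1, -0.7 for Gpd2 and -0.65 for Cyp7a1 (all passed). It was -0.31 for Thrsp, -0.43 for Abcg5, -0.24 for Abcg8, -0.1 for G6pc and 0.15 for Fasn, none of which passed. The median over the 17 genes was -0.25. These values share WT libraries with the KO comparison and are given as levels only.

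**Figure D3:**
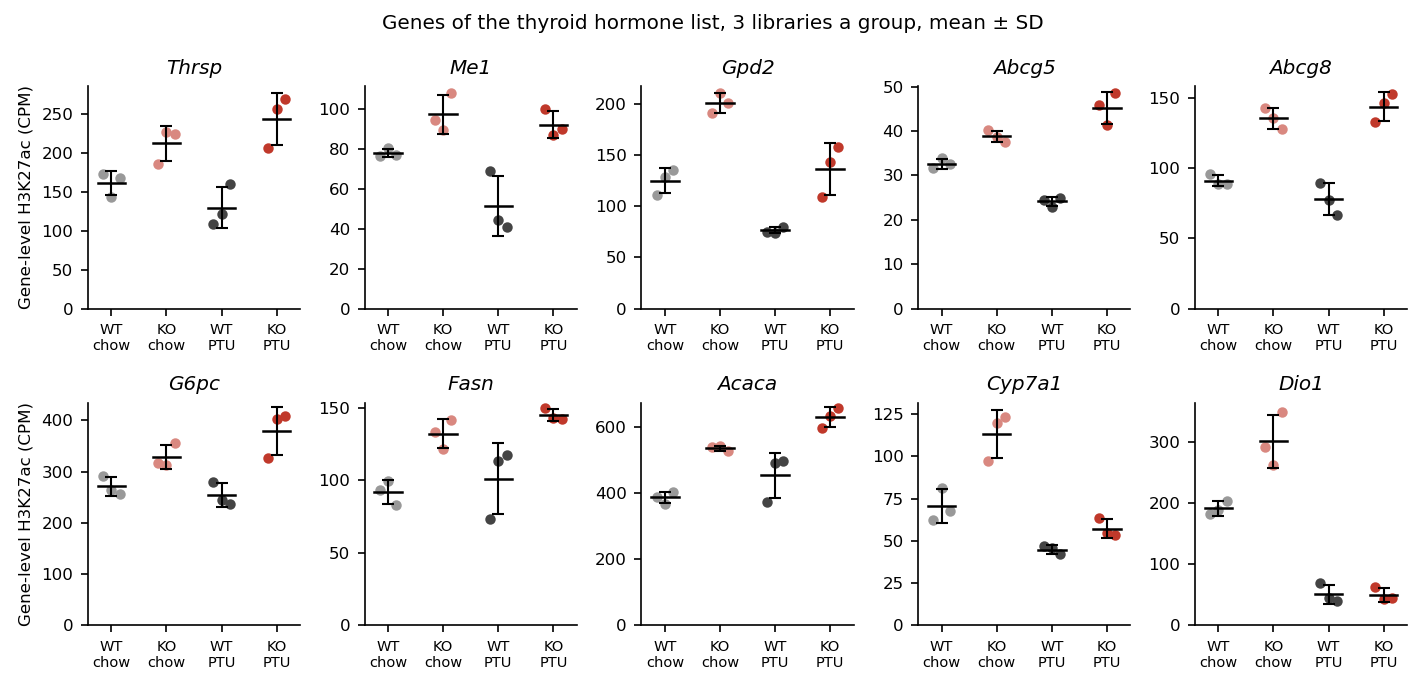
Gene-level H3K27ac in CPM (y axis, from 0) of 10 genes of the thyroid hormone list in WT and KO on chow and PTU/LID, with points for the 3 libraries of each group and bars for mean ± SD. Thrsp, Me1 and Abcg5 show KO on PTU/LID above WT on PTU/LID with no overlap, while Dio1 is near 50 CPM in both genotypes on PTU/LID.

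The receptors and the supply of thyroid hormone showed no such gain. Of 16 genes for receptors, carriers and transporters, 0 passed in either direction with edgeR, 0 had an unadjusted p below 0.05, and DESeq2 also called 0; limma with loess scaling called 1 lower. Thrb, the main receptor of hepatocytes, had 548, 526 and 491 CPM in KO and 522, 454 and 469 in WT (0.12 ± 0.1). Thra was at -0.06 ± 0.18 and Rxra, the partner of both receptors, at -0.11 ± 0.11. The signs of Thra and Thrb turned under loess scaling.

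Among 14 genes of the corepressor complex and its partners, 5 were higher and 0 lower (median 0.19). Tbl1xr1, a core subunit that exchanges corepressors for coactivators, had 306, 269 and 264 CPM in KO and 178, 161 and 156 in WT (0.76 ± 0.1, edgeR adjusted p = 8.36e-05). Hdac5, a class IIa deacetylase, rose by 0.57 ± 0.11. These 2 passed with any 1 library left out. Bcl6 (0.45 ± 0.1) did not pass without KO-232 (edgeR adjusted p = 0.0656), near gene ends (0.192) or under loess scaling (limma adjusted p = 0.103). Nrip1 (0.48 ± 0.14) did not pass without KO-211 (edgeR adjusted p = 0.051), KO-232 (0.165), WT-155 (0.116) or WT-280 (0.172). Nor did Nrip1 pass with the 6 libraries alone (0.0794), near gene ends (0.327) or under loess scaling (limma adjusted p = 0.0891). Tbl1x (0.42 ± 0.13) did not pass whichever of the 6 was left out, with adjusted p from 0.0616 to 0.102. Hdac3 was at 0.15 ± 0.17. Of 13 coactivator and acetyltransferase genes 1 passed, Ppargc1b at 0.5 ± 0.13, and it did not without KO-232 (0.12), KO-239 (0.07) or WT-135 (0.057), with the 6 libraries alone (0.0808) or near gene ends (0.178).

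Of 30 lipogenesis genes, 15 were higher and 0 lower, with a median of 0.42, and 9 of the 15 passed with any 1 library left out. Thrsp, Me1, Fasn and Acaca are counted both here and in the thyroid hormone list. Scd1 had 638, 626 and 709 CPM in KO and 228, 223 and 192 in WT, a 3.07-fold difference (1.62 ± 0.11, edgeR adjusted p = 6.68e-09). Elovl5 had 468, 496 and 511 CPM in KO and 305, 288 and 244 in WT (0.82 ± 0.11). Acacb, which makes the malonyl-CoA that restrains fatty acid oxidation, averaged 266 ± 31.6 CPM in KO and 147 ± 24 in WT (SD, n = 3; 0.86 ± 0.13 on the log2 scale). Pnpla3, a lipid droplet lipase, had 29, 17.5 and 21.6 CPM in KO and 10.8, 7.56 and 4.45 in WT (1.6 ± 0.28). In each of these 4 genes the lowest KO library was above the highest WT library. G0s2, an inhibitor of triglyceride lipase, and Mogat1, an acyltransferase, both rose by 0.65 ± 0.12.

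Of 13 regulators of lipid synthesis, 3 were higher and 0 lower, with a median of 0.08. Mlxipl, which encodes the carbohydrate sensor ChREBP, had 241, 286 and 261 CPM in KO and 161, 178 and 145 in WT (0.7 ± 0.11, edgeR adjusted p = 0.000354). Srebf1, the sterol regulatory factor of lipogenesis, had 352, 399 and 419 against 202, 300.2 and 302 (0.54 ± 0.13), and did not pass without KO-232 (0.0537), with the 6 libraries alone (0.0581) or near gene ends (0.0805). Scap, the escort of that factor, passed at 0.43 ± 0.12 but not without KO-232 (0.142), KO-239 (0.0517), WT-155 (0.0516) or WT-280 (0.156). Nor did Scap pass with the 6 libraries alone (0.0734) or near gene ends, where it was at 0.12 (0.891). With loess scaling the limma adjusted p was 0.213.

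Of 15 LXR targets, 5 were higher: Abcg5, Abcg8, Scd1, Srebf1 and Pltp, the phospholipid transfer protein (0.86 ± 0.14). All but Pltp are also counted in the lists above. Of 22 genes of cholesterol synthesis and uptake, 5 were higher and 0 lower. Sc5d, a late enzyme of the pathway, had 566, 688 and 727 CPM in KO and 362, 386 and 393 in WT (0.8 ± 0.11, edgeR adjusted p = 6.53e-05). Sqle, squalene epoxidase, had 27.5, 24.1 and 22.7 against 12.8, 14.9 and 12.2 (0.88 ± 0.18). Of the 5, these 2 alone passed with any 1 library left out, and Sqle did not pass with only regions within 2.5 kb of a gene end (0.34). Among 22 bile acid genes, 6 were higher, of which only Abcb4, the phospholipid flippase of bile, passed with any 1 library left out (334, 358 and 352 CPM in KO, 262, 209.6 and 190 in WT, 0.66 ± 0.11).

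Genes of fatty acid oxidation and PPARα also rose in part, 11 of 36 higher and 0 lower, with a median of 0.32. Acot1, an acyl-CoA thioesterase, had 56.5, 71.7 and 65.5 CPM in KO and 37, 25.8 and 29.4 in WT (1.09 ± 0.18, edgeR adjusted p = 0.000512); it has a close copy in Acot2. Vnn1, a pantetheinase, rose by 0.78 ± 0.16. Acaa1b and Ehhadh, enzymes of peroxisomal oxidation, rose by 0.69 ± 0.12 and 0.51 ± 0.1, and Decr1 by 0.58 ± 0.12. Of the 11, these 5 alone passed with any 1 library left out. Decr1 did not pass near gene ends (edgeR adjusted p = 0.121).

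In glucose metabolism 5 of 26 genes were higher, 0 lower, and all 5 passed with any 1 library left out. Ppp1r3g, a glycogen-targeting subunit of protein phosphatase 1, had 203, 262 and 305 CPM in KO and 74, 115 and 93.5 in WT (1.44 ± 0.22, edgeR adjusted p = 0.00154). Ppp1r3b, its liver relative, had 534, 570.1 and 488 against 318, 319.8 and 289.7 (0.78 ± 0.1), and did not pass near gene ends (0.0536). Pygl, glycogen phosphorylase, rose by 0.77 ± 0.13 and Irs2, an insulin receptor substrate, by 0.55 ± 0.11.

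The growth hormone axis had 7 of 13 genes higher and 0 lower (median 0.45), 5 of them with any 1 library left out. Stat5b, the transcription factor of growth hormone signalling, had 611, 595 and 588 CPM in KO and 448, 383 and 356 in WT (0.6 ± 0.1, edgeR adjusted p = 0.000477). Prlr had 545, 479 and 399 against 309, 283 and 238, and passed everywhere but under loess scaling (0.78 ± 0.14; limma adjusted p = 0.076 there). Stat5a, Igfbp1 and Igfbp2 rose by 0.88 ± 0.16, 0.74 ± 0.12 and 0.62 ± 0.11; Igfbp2 did not pass with regions within 10 kb (0.321) or 2.5 kb (0.921) of a gene end. Of 21 clock genes, 2 were higher, 1 of them with any 1 library left out. Nfil3, a repressor of the clock's output, had 321, 397 and 397 CPM in KO and 228, 200.2 and 145 in WT (0.97 ± 0.14), with 6 of its 7 regions higher, 4 of them with any 1 library left out. The time of day of collection was not used here.

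Of 19 female-biased liver genes 6 were higher, and of 20 male-biased genes 2 were higher, with 0 lower by edgeR in both lists and medians of 0.41 and 0.02. At an unadjusted p below 0.05, 11 female-biased genes were higher and 0 lower, against 7 and 5 male-biased genes. Of the 20 male-biased genes, DESeq2 called 4 higher and 1 lower, and limma with loess scaling 1 higher and 2 lower. Every KO library lay above every WT library at 4 of the 20 and below at 4, beside 10.6% and 10.1% of all genes. Sult2a1, a hydroxysteroid sulfotransferase, had 61.7, 62.6 and 80.6 CPM in KO and 29.6, 18 and 9.57 in WT (1.9 ± 0.25, edgeR adjusted p = 0.000302). Cyp17a1, a steroid hydroxylase, had 205, 238.8 and 299.5 against 119, 129 and 136 (0.96 ± 0.15). Of the 6 female-biased genes, these 2 alone passed with any 1 library left out. Of the male-biased genes, Mup1, a major urinary protein, had 158, 176 and 205 CPM in KO and 139, 116 and 95.5 in WT (0.63 ± 0.14), and did not pass near gene ends (0.31 on the log2 scale, edgeR adjusted p = 0.375); the Mup genes are a family of near-identical copies. The other male-biased gene that passed, Mup7 (0.53 ± 0.16), overlapped between the groups. It did not pass without KO-232 (edgeR adjusted p = 0.182), KO-239 (0.175), WT-155 (0.153) or WT-280 (0.188). The sex of the mice was not used here. Of 25 genes of drug metabolism 7 were higher, 4 of them with any 1 library left out. Cyp3a11, the main drug-oxidising P450 of mouse liver, had 416, 450.3 and 418 CPM in KO and 228, 213 and 157 in WT (1.11 ± 0.12, edgeR adjusted p = 1.27e-05). Cyp3a25 and Cyp2c55 rose by 0.66 ± 0.1 and 0.81 ± 0.15. Nr1i2, which encodes the pregnane X receptor, rose by 0.78 ± 0.16 but did not pass without WT-280 (0.0504). Of 10 cell cycle and growth arrest genes 2 were higher, among them the stress gene Gadd45g (92.1, 91.4 and 88.1 CPM in KO, 63.5, 60.7 and 43.4 in WT, 0.7 ± 0.14). Gadd45g alone of the 2 passed with any 1 library left out.

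Of 18 inflammation genes, edgeR and DESeq2 each called 0 higher and 2 lower, and limma with loess scaling 1 lower. Icam1, an adhesion molecule, had 5.79, 4.53 and 5.23 CPM in KO and 10.1, 11.6 and 11.8 in WT (-1.13 ± 0.24, edgeR adjusted p = 0.00474), from 1 region. Ccl2, a chemokine for monocytes, was lower by -0.58 ± 0.16, but not without KO-232 (0.101), KO-239 (0.0932), WT-135 (0.11) or WT-280 (0.0856). Nor did Ccl2 pass with the 6 libraries alone (0.0676) or near gene ends (0.542).

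Genes that define hepatocytes were present and none of the 24 tested passed in edgeR's test, though 3 had an unadjusted p below 0.05 and DESeq2 called 1. Their median was 0.16, 19 of 24 were above 0, and their summed level ran from 9810 to 11066 CPM in KO and 8006 to 10387 in WT. Housekeeping genes had a median of -0.03 and 0 of 13 passed (1 at unadjusted p, lower; DESeq2 0). Of the markers of other liver cells, 5 of 15 Kupffer cell entries, 3 of 11 lymphocyte, 14 of 15 endothelial, 6 of 14 stellate and 3 of 8 cholangiocyte entries had a value. None of these passed with edgeR. At an unadjusted p below 0.05 there were 0, 1, 3, 1 and 1 in that order, and DESeq2 called 0 apart from 1 lymphocyte entry. Endothelial markers summed to between 834 and 906 CPM in KO and between 911 and 1054 in WT, with 13 of 14 below 0 and a median of -0.18. Stellate markers summed to 46.2 to 69 in KO and 56.1 to 73.3 in WT (median -0.39, 6 of 6 below 0), and Kupffer markers to 38.6 to 53.9 and 39.9 to 46.7. In whole tissue, fewer cells of a type and less of the mark per cell cannot be told apart, and the part of these differences in the results was not tested.

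**Figure D4:**
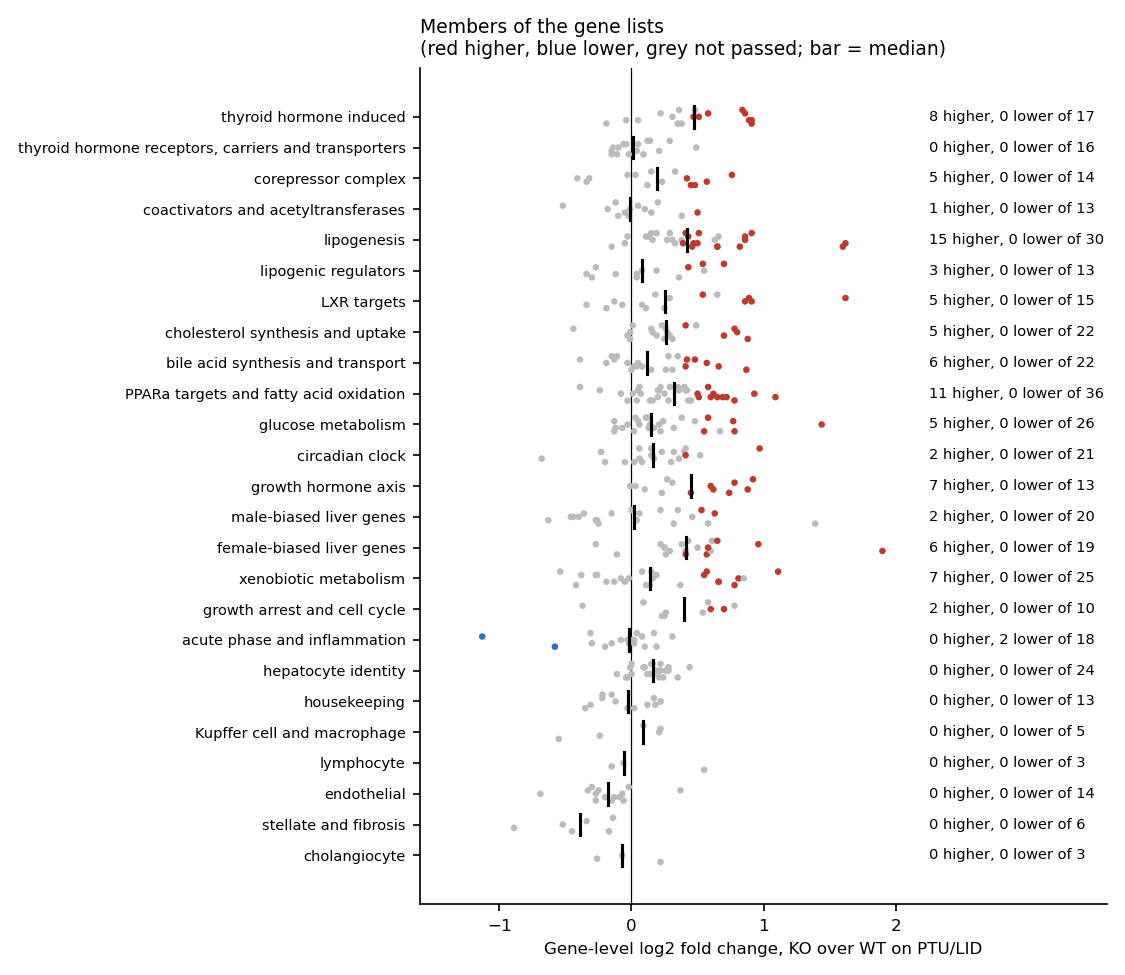
Gene-level log2 fold change of KO over WT on PTU/LID (x axis) of every tested member of the 25 lists (rows), red where higher, blue where lower and grey where not passed, with a black bar at each median. The share of red points is highest in the growth hormone (7 of 13), lipogenesis (15 of 30) and thyroid hormone (8 of 17) lists, and are absent from the receptor, hepatocyte, housekeeping and cell marker lists.

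On chow, in separate libraries, 1278 regions passed (2.43%), 845 higher in KO (1.61%) and 433 lower (0.823%). Of genes, 454 passed there (3.97%), 278 higher (2.43%) and 176 lower (1.54%). Of the 1665 regions higher on PTU/LID, 1369 also had a positive log2 fold change on chow, with a median there of 0.37, and 277 passed there. Those 277 are 16.6% of the calls on PTU/LID and 32.8% of those on chow. Of the 367 lower regions, 280 were negative on chow and 36 passed, which is 9.81% and 8.31% of the calls. A count called on 1 diet alone does not show that the diets differ. The test of the difference itself, the genotype by diet interaction, passed at 121 regions (0.23%), 83 positive (0.158%) and 38 negative (0.0722%). It passed at 46 genes (0.402%), 34 positive (0.297%) and 12 negative (0.105%). In the thyroid hormone, lipogenesis, LXR, cholesterol, bile acid, PPARα and growth hormone lists it passed at 0 genes. In the glucose and female-biased lists it passed at 1 gene each. Of the 83 regions whose KO difference was larger on PTU/LID, 65 were also higher in KO on PTU/LID, and 21 were lower in KO on chow (median on chow -0.55). Of the 38 with the opposite sign, 31 were higher in KO on chow and 6 lower on PTU/LID. The number of interaction regions ranged from 33 to 208 as each of the 12 libraries was left out, and it was 33 without the chow library WT-106.

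**Figure D5:**
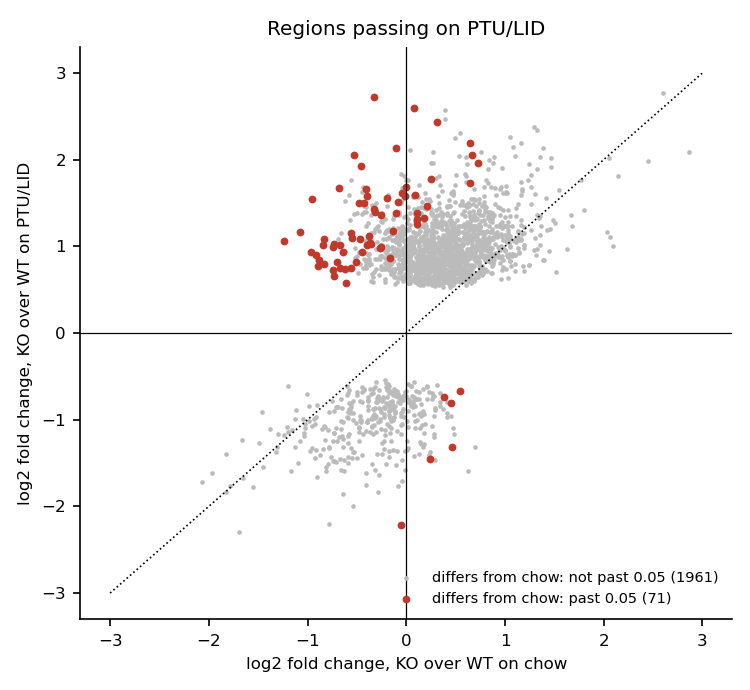
Log2 fold change of KO over WT on PTU/LID (y axis) against that on chow (x axis) for the 2032 regions that passed on PTU/LID, with the dotted line marking equal values. The regions were chosen by their PTU/LID value, so points above 0 mostly lie above the line. The red points, where the difference between diets passed, lie mostly where the chow value is near or below 0.

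Where the diets differed, KO stood out on PTU/LID alone at some loci. In Dync2li1 beside Abcg5 and Abcg8, the region chr17:84649230-84650951 had 57.3, 39.2 and 50.2 CPM in KO on PTU/LID and 14, 9.9 and 9.85 in WT. On chow, KO had 13.3, 9.12 and 11.6 and WT 7.94, 12 and 17.7. KO on PTU/LID is thus the high group and the other 3 overlap (interaction 2.23 ± 0.34, edgeR adjusted p = 0.00117). Inside Ppp1r3g, chr13:35962531-35963745 had 53.7, 66.7 and 67.4 CPM in KO on PTU/LID, 20 to 26.3 in WT, and 16.3 to 31.4 over all chow libraries (interaction 1.76 ± 0.28, adjusted p = 0.0016). Inside Cmah, which encodes the hydroxylase of sialic acid (chr13:24364133-24366323), the order of the genotypes turned. KO had 42.5, 34 and 35 CPM and WT 12.9, 20.2 and 19.5 on PTU/LID, while on chow KO had 23.8, 24.4 and 16.8 and WT 55.7, 40.5 and 56 (interaction 2.3 ± 0.28, adjusted p = 2.04e-05).

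Some regions of the Mup cluster were higher in KO on chow and did not pass on PTU/LID, unlike the summed Mup1 above. The region near Mup17 (chr4:61594276-61603916) had 707, 575 and 769 CPM in KO and 147, 223 and 152 in WT on chow. On PTU/LID it had 71.9, 74.3 and 90.8 in KO and 75.9, 54.9 and 51.1 in WT, all lower than on chow and overlapping (interaction -1.59 ± 0.26, edgeR adjusted p = 0.00177; 0.162 with loess scaling in limma). Of the 38 regions with this sign, 14 were at Mup genes and 10 at Cyp3a genes, both families of near-identical copies.

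Ranbp3l, Flvcr2 and Perp were among the largest gene-level losses. Chow levels stand beside the first 2 as levels only, since KO over WT and WT over chow share the WT libraries on PTU/LID. Ranbp3l had 31.6, 32.9 and 35.6 CPM in WT and 17.4, 14.2 and 12.6 in KO on PTU/LID, against 16.7, 13.5 and 15.9 in WT on chow. KO over WT on PTU/LID was lower (-1.2 ± 0.18, edgeR adjusted p = 0.000242). Its interaction of -1.34 ± 0.27 passed (0.0207) but did not when any 1 of 7 of the 12 libraries was left out, with adjusted p up to 0.106. Flvcr2 had 29.6, 42.5 and 45.2 CPM in WT and 22.3, 13.7 and 17.3 in KO on PTU/LID, against 17.6 ± 1.08 in WT on chow (SD, n = 3; KO over WT: -1.18 ± 0.19), and its interaction did not pass (0.29). Perp, a p53 target of cell junctions, had 11.6, 12.2 and 11.3 CPM in KO and 25.2, 31 and 32 in WT (-1.34 ± 0.2).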

How the data were processed

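H3K27ac ChIP-seq counts of mouse liver were used as the authors deposited them, 1 table of whole-number read counts for 12 libraries over 52645 shared regions, with region lengths. Genome build mm10, Bowtie2 2.2.1 and bedtools 2.26.0 are named, with MACS2 2.1.1 and Picard 2.8.1, per the submitters' processing notes. How regions were merged and whether duplicates were removed is not given in the sources used here. Groups follow the labels' titles. Starts were printed as 1-based.

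A region belonged to the RefSeq protein-coding gene (GRCm38.p6) containing its midpoint, or else to the nearest gene end within 50 kb, and counts were summed per gene. G6pc1 was matched as G6pc. Of 109 named genes, 83 had a listed promoter. Tests used edgeR 4.0.16 in R 4.3.3 (robust quasi-likelihood, TMM, filterByExpr with minimum count 10, 1 mean per group over 12 libraries, Benjamini-Hochberg adjustment, threshold 0.05). Each SE was derived from the test as the size of the log2 fold change divided by the root of F. CPM use TMM factors. On simulated counts for KO against WT on PTU/LID, 60% of 100 regions changed by a log2 of 1, and 99% of 100 changed by 2, were recovered over 52563 regions. The changes were placed only in regions above a set mean count, so recovery among regions of lower count was not measured.

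Named regions were the 12 highest and 12 lowest passing, non-overlapping log2 fold changes, 1 per gene. Named genes were the same at gene level, up to 6 passing members of each of 25 lists, and a fixed set (Ncor1, Hdac3, Thra, Thrb, Dio1, Thrsp, Me1, Gpd2, Cyp7a1 and Fasn); 1 more gene of that set is not reported here. Loci with several passing regions, and list genes that did not pass, were named after their values were seen. The members and lists were chosen with earlier results of these data known. Alternatives were DESeq2 1.42.0, other scalings including limma 3.58.1 with cyclic loess, no filter, fewer libraries, terms for mitochondrial share and narrower gene assignment. Replicate pairs on PTU/LID differed beyond sampling noise (chi-square from 2.35 to 4.35 per degree of freedom).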

Additional observations from a re-analysis of the deposited data

Results flagged for a closer look

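The difference between KO and WT on PTU/LID differed from that on chow, by edgeR's test of the interaction, at the following named regions and genes; values are the log2 difference of differences with the adjusted p. Positive values, where KO gained more on PTU/LID, were found at regions in Cmah (2.3, 2.04e-05), Dync2li1 (2.23, 0.00117 and 2.12, 0.00344), Ppp1r3g (1.76, 0.0016) and Lyrm4 (1.98, 0.00344), and near Scd1 (3.05, 0.0355), Fabp5 (2.52, 0.0163) and Sult2a7 (1.54, 0.0163). The 2 Dync2li1 regions lie in 1 stretch, and Lyrm4 neighbours Ppp1r3g. Negative values were found at Mup9 (-2.26, 2.04e-05), Mup-ps12 (-1.96, 4.33e-05), Mup10 (-2.45, 0.00166), Mup17 (-1.59, 0.00177), Cyp3a16 (-2.44, 0.000522) and Avpr1a (-2.16, 0.00898). At the 4 Mup regions and Cyp3a16 the KO difference passed on chow and not on PTU/LID.

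At gene level the positive values were 1.19 for Morc3 and 1.2 for Khdc1a (both 0.00308), 1.25 for Sult2a7 (0.00308), 1.33 for Gm40011 (0.00931), 0.95 for Tbc1d8 (0.0106), 2.22 for Dync2li1 (0.0144), 1.56 for Ackr3 (0.014), 1.47 for Dysf (0.012) and 1.66 for Ppp1r3g (0.0435). Khdc1a differed on chow (-1.11) and was at 0.09 on PTU/LID. The negative values were -1 for Ttbk1 (0.014), -1.34 for Ranbp3l, -1.45 for Ginm1 and -1.05 for Gamt (all 0.0207) and -1.33 for Perp (0.0358). These 5 negative calls were each lost with some libraries left out, and Perp's was lost in 9 of the 12 cases, with adjusted p up to 0.16. Morc3, Tbc1d8 and Ginm1 did not pass with only regions within 2.5 kb of a gene end (0.217, 0.611 and 0.245).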

How the results depend on the processing

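For KO against WT on PTU/LID, the 2032 regions became 1304 with the 6 libraries alone, and, in 2 alternatives added after the data were seen, 3380 with a term for the mitochondrial share split over the PTU/LID libraries and 3968 with only the 4 libraries of lower share. Leaving out 1 library gave 929 to 2599. The 719 genes became 369, 1142 and 1302 in the same order, 368 with only regions within 2.5 kb of a gene end, and 364 to 1007 with 1 library left out. The interaction's 121 regions became 189 with DESeq2 and 256 with loess scaling, or 33 to 208 with 1 library left out; its 46 genes became 105, 73 and 13 to 89, and 18 near gene ends. On chow, the 1278 regions became 615 with a term for the mitochondrial share (448 to 799 with 1 library left out, added later), and the 454 genes 228, 227 near gene ends and 111 to 254. Other settings kept each count within 1.5 times. Loess scaling moved the share of higher calls on PTU/LID to 74.2% of regions against 81.9%, and to 68.2% of genes from 77.7%. On chow, DESeq2 gave 77.1% of regions against 66.1%, while of genes on chow 61.2% were higher, 71.4% near gene ends and 51.3% (234 higher, 222 lower) with loess scaling.

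Signs turned for genes near 0. With 1 library left out Ncor1 ran from -0.09 to 0.09 (0.07 without KO-239, 0.09 without WT-135); it was at 0.0 with loess scaling and 0.01 with the 4 libraries. Hdac3 was between -0.01 (without KO-211) and 0.25, Thra at 0.05 and Thrb at -0.07 with loess scaling. Dio1 ran from -0.22 to 0.23 (0.06 without KO-232, 0.05 without KO-239, 0.23 without WT-135) and was at 0.04 with the 4 libraries and 0.05 near gene ends. Of 24 named regions 18, and of 88 named genes that passed 55, passed with any 1 library left out. No paired analysis was possible because the H3K27ac groups share no replicate number. The planned split by mitochondrial share over 12 libraries parted only 1 chow library, so its fit without the higher set is the fit of the 6 libraries. Small differences can be missed: at a log2 of 1, 60% of simulated regions passed. Depth was not varied in the simulation, so the part of depth in this was not tested.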
